A study of Homo sapiens with 4 samples.

Results

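Transcript levels of 9 genes of the sodium pump and of biliary secretion were read from an FPKM table of 58174 genes (FPKM: fragments scaled to transcript length and library size). The genes were taken by symbol, and all 9 were found once. They were the pump's beta subunits ATP1B1 and ATP1B3, its small FXYD regulators FXYD2, FXYD3 and FXYD5, the chloride channels CFTR and ANO1, the chloride-bicarbonate exchanger SLC4A2 and the water channel AQP1. The samples were 4 human cell line libraries, with 1 library for each line and transfection. LM3 is a hepatocellular carcinoma line and RBE an intrahepatic cholangiocarcinoma line. Each was transfected with si-FENDRR, a small interfering RNA against a long noncoding RNA, or with the control si-NC. All 4 cultures received Lipofectamine 3000, and RNA was taken 48 h later. Each tumour type is represented by 1 line, so a line difference below is between LM3 and RBE and not between tumour types. FENDRR itself was listed at 0 in every library, those with si-NC too, so the transfections were compared by label alone.

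The sodium pump moves sodium out of and potassium into the cell at the cost of ATP. Its alpha subunit does the transport, its beta subunit is needed for folding and delivery to the membrane, and an FXYD protein tunes its affinity for ions. In bile duct epithelium the sodium gradient drives secretion: secretin raises cyclic AMP, CFTR and calcium-activated channels release chloride, SLC4A2 exchanges that chloride for bicarbonate, and water follows through AQP1.

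Each library listed 13437 to 13682 genes at 1 FPKM or more, and the files hold no read counts, so the depth behind each value is unknown. Line differences were tested with limma on log2(FPKM + 1) with terms for line and transfection, over the 15930 genes that reached 1 FPKM in any library. They are given as RBE minus LM3 with their SE (n = 2 libraries per line), and p-values were adjusted over all 15930 genes with a threshold of 0.05. The labels name no separate cultures within a line and transfection, and no libraries share both. The p-values therefore rest on how far the transfection difference departs between the lines, moderated across genes. They do not measure a spread between like libraries. Such a departure may be technical or a response of a single line, which cannot be told apart. By this test 58.7% of all genes differed between the lines, 26.4% higher in RBE and 32.3% higher in LM3. The tilt toward LM3 depended on scaling: of the called genes 44.9% were higher in RBE, and 50.1% with median-of-ratios scaling.

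The lines carried only part of the markers of their labelled types. In RBE, 6 of 8 tested cholangiocyte markers were higher and 1, SPP1, was higher in LM3. KRT7 was at 429 and 391 FPKM in RBE against 7.21 and 6.02 in LM3, whereas CFTR and SCTR, the secretin receptor, were under 1 in both lines. This list summed to 1468 and 1105 FPKM in LM3 and to 1659.5 and 1632.5 in RBE. SPP1 made up most of the sum in LM3, at 1118 and 909 FPKM, and was at 515 and 504 in RBE. Of 8 tested hepatocyte markers, 5 were higher in LM3, among them CEBPA, and 3 in RBE, among them SERPINA1, and APOA1 and CYP3A4 were near 0 everywhere. The hepatocyte list summed to 181 and 189 FPKM in LM3 and to 80.7 and 109 in RBE. All 5 tested intestinal markers were higher in LM3, with a summed level of 935 and 1004 FPKM against 12.5 and 12.8 in RBE. KRT20 and LGALS4 made up most of this sum, and CDX1, FABP1 and GPA33 were listed at 0 in LM3. Fibroblast markers summed to 30.4 and 27.0 FPKM in LM3 and to 4.97 and 3.86 in RBE, with 2 of 4 tested higher in each line. LUM made up most of the sum in LM3, at 28.4 and 24.9 FPKM, and was listed at 0 in RBE. Of the tested markers, 87.5% differed on the cholangiocyte list and 100% on the hepatocyte, intestinal and fibroblast lists. The share of all tested genes was 58.7%. The part of these other programmes in the results was not tested.

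All 3 FXYD members differed between the lines, and the stretch that defines their family is shown here so that their likeness at the base level can be seen. FXYD2, once called the gamma subunit of the kidney pump, lowers the pump's sodium affinity. FXYD3 is a regulator found in stomach, colon and several carcinomas, and FXYD5, also called dysadherin, carries a long extracellular stretch and affects cell adhesion. The lines below give 72 coding bases around the motif that names the family, from the first listed transcript of each gene in GENCODE 29. FXYD6 is included because its readthrough with FXYD2 forms a gene model of its own. Capitals mark the 4 codons of the motif: phenylalanine, a variable residue, tyrosine and aspartate.
FXYD2: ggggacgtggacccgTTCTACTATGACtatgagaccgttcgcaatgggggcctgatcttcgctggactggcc
FXYD3: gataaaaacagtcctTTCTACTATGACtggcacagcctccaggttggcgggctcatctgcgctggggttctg
FXYD5: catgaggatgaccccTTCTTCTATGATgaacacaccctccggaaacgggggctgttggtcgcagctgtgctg
FXYD6: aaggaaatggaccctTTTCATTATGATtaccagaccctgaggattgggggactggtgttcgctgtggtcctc
FXYD2 and FXYD3 use the same 12 motif bases but share only 40 of the 72 (55.6%). FXYD2 and FXYD5 share 59.7%, FXYD3 and FXYD5 58.3%, and FXYD2 and FXYD6 65.3%. The motif starts at codon 17 of 64 in FXYD2, at codon 30 of 113 in FXYD3 and at codon 135 of 178 in FXYD5, so FXYD5 has by far the longest coding stretch ahead of it.

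Each line had its own FXYD gene at the head of the family. FXYD2 filled most of the family's level in RBE and was listed at 0 in LM3, FXYD5 filled it in LM3, and FXYD3 was a minor gene that passed 1 FPKM in LM3 alone. All 5 tested genes of the list of 8 FXYD gene models differed (100%, beside 58.7% of all tested genes). Of these, 3 were higher in RBE and 2 in LM3. The 3 were FXYD2, FXYD6 and their readthrough FXYD6-FXYD2, which shares exon bases with both, so they are not separate cases. The median difference was 2.12 against -0.09 over all tested genes. That median is of the readthrough, listed at 0 in LM3, so it depends on the pseudocount of 1.

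FXYD2 (ENSG00000137731, hg38 chromosome 11, 117800844 to 117828698, minus strand) was at 429.8 FPKM with si-FENDRR and 410.2 with si-NC in RBE. It was listed at 0 in both LM3 libraries, so no fold is given. In RBE it ranked 146 and 151 among all listed genes, and of the 5040 genes listed at 0 in both LM3 libraries and above 0 in RBE it had the highest RBE level. The lines did not overlap (adjusted p = 0.000584 by limma). In bulk RNA, fewer cells that make a transcript and less of it per cell cannot be told apart.

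Part of this level could belong to an overlapping model. The readthrough gene FXYD6-FXYD2 shares 392 of its 782 exon bases with FXYD2, which is 7.0% of the exon bases of FXYD2, and 390 with FXYD6. It was listed at 0 in LM3 but at 2.34 and 4.64 FPKM in RBE with si-FENDRR and si-NC (adjusted p = 0.00505 by limma). FXYD2 was thus at 184 and 88.3 times the readthrough in RBE, so the readthrough's own estimate was small beside it. FXYD6 was listed at 0 in LM3 but at 4.30 and 5.50 FPKM in RBE (adjusted p = 0.00171 by limma). All 3 models of this locus were therefore above 0 in RBE and listed at 0 in LM3, with FXYD2 far above the other two.

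FXYD3 (ENSG00000089356, chromosome 19, 35115879 to 35124324, plus strand) went the other way. It was at 5.24 FPKM with si-FENDRR and 5.69 with si-NC in LM3 versus 0.0293 and a listed 0 in RBE. The lines did not overlap, and the difference was -2.67 ± 0.14 on the log2(FPKM + 1) scale (adjusted p = 0.00135 by limma). For so low a gene its size depends on the pseudocount, at -5.61 with 0.1 and -1.06 with 5. Even in LM3 it ranked only 8710 and 8338 among the listed genes.

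FXYD5 (ENSG00000089327, chromosome 19, 35154730 to 35169883, plus strand) was well expressed in both lines. It was at 126 FPKM with si-FENDRR and 83.3 with si-NC in LM3 versus 54.3 and 55.1 in RBE. Both LM3 libraries lay above both RBE libraries, with a ratio of the line means of 1.91 and a difference of -0.89 ± 0.19 (adjusted p = 0.0207 by limma). The 2 LM3 libraries differed more from each other than the 2 of RBE. The call was lost when genes with low values were kept in (adjusted p = 0.0538) and when RBE si-FENDRR (0.173) or RBE si-NC (0.170) was left out.

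The other FXYD genes were low. FXYD1, the phospholemman of heart and muscle, was at 0.198 and 0.417 FPKM in LM3 and listed at 0 in RBE. FXYD7, a brain regulator, was at 0.0546 and 0.0392 in LM3 and listed at 0 in RBE, and FXYD4 was listed at 0 in all 4 libraries. These 3 genes were below the level needed for a test. Counting the 7 single genes of the family, FXYD2 made up 88.0% and 87.1% of the summed FXYD level in RBE, and FXYD5 95.8% and 93.1% in LM3 against 11.1% and 11.7% in RBE. FXYD3 was 3.99% and 6.36% of the sum in LM3.

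**Figure D1:**
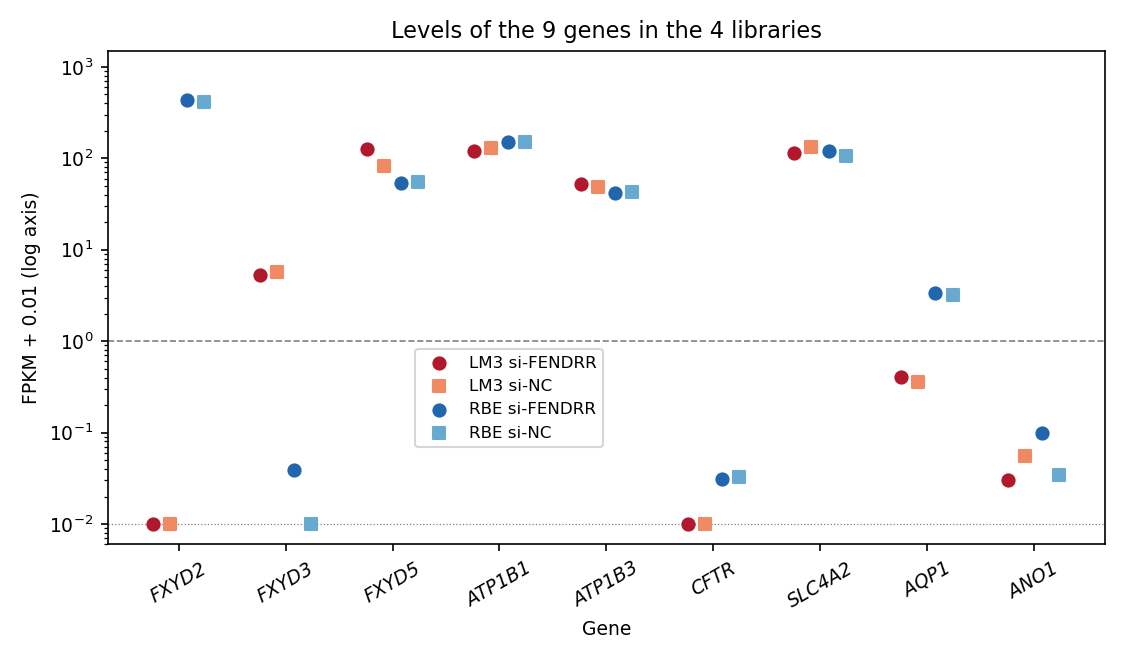
Level of each of the 9 genes in each library, as FPKM + 0.01 on a log axis, with circles for si-FENDRR and squares for si-NC, red for LM3 and blue for RBE; the dashed line is at 1 FPKM and the dotted line is a listed 0. FXYD2 and AQP1 lie higher in RBE, FXYD3 and FXYD5 higher in LM3, ATP1B1, ATP1B3 and SLC4A2 lie close together, and CFTR and ANO1 stay under 0.1 FPKM.

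FXYD2 and FXYD6 lie side by side on chromosome 11 and FXYD1, FXYD3, FXYD5 and FXYD7 on chromosome 19, and some of the nearest protein-coding genes were looked at after the values were seen. Next to FXYD3, on chromosome 19, the liver protease HPN and LGI4 were higher in LM3. HPN was at 3.34 and 3.21 FPKM in LM3 versus 0.198 and 0.248 in RBE (adjusted p = 0.00257 by limma). Beyond FXYD5 the order turned: FAM187B was listed at 0 throughout, and the tricellular junction gene LSR was at 0.888 and 1.47 FPKM in LM3 against 17.4 and 15.0 in RBE (adjusted p = 0.00182 by limma). On chromosome 11, DSCAML1 was higher in RBE at 1.81 and 1.55 FPKM, while CEP164 beyond it was higher in LM3. The DSCAML1 model reaches to 117817525 and so runs into the span of FXYD2 on the same strand, without shared exon bases. Whether reads of FXYD2 entered the DSCAML1 value was not tested. FXYD2 thus had neighbours of either direction, and the neighbour LSR of FXYD5 went against it.

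Promoter windows from RefSeq (GRCh38.p14, 250 bases before to 50 after a start) were found for 8 of the 9 genes, in 11 windows, and not for FXYD2. The windows of FXYD3 and FXYD5 are shown, without their exon bases, because both genes were higher in LM3 and lie near each other on the plus strand of chromosome 19. Searched on both strands were GGGCGG, the GC box, and TATAAA, the TATA box. The 2 windows hold 1 match between them, so no matches overlap, and a match is a description only. Capitals mark it, GGGCGG read on the minus strand of the FXYD5 window at chr19:35154485-35154729. The FXYD3 window, at chr19:35117750-35117999, does not hold these letters. It lies inside the listed FXYD3 gene model, which starts at 35115879, whereas the shown FXYD5 bases end just before that gene's listed start at 35154730. The 2 windows are therefore not placed alike.
FXYD3: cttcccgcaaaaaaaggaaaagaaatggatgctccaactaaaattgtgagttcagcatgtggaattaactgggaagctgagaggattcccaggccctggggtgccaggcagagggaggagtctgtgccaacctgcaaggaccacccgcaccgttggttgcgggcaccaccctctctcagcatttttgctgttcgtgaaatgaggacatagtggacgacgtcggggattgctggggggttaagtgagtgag
FXYD5: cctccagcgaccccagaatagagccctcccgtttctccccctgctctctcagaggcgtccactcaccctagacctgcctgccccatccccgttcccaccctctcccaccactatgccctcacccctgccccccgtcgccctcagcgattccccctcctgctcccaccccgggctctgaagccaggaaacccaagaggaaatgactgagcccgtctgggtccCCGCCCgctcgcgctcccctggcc
Among 35116 windows of the same length, 45.0% held GGGCGG and 11.5% TATAAA. The full FXYD3 window held 9 CpG pairs and that of FXYD5 held 19, against a median of 14 over all windows. The beta subunit genes ATP1B1 and ATP1B3 had 41 and 45 CpG pairs, and AQP1 had 10 and the only TATAAA among the members' windows.

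Neither of the 2 expressed beta subunits passed the threshold between the lines. ATP1B1 (ENSG00000143153, chromosome 1, 169105697 to 169132722, plus strand), the common beta subunit of epithelia, was at 121 FPKM with si-FENDRR and 129 with si-NC in LM3, and at 149 in both RBE libraries. Both RBE values lay above both LM3 values, but the difference of 0.25 ± 0.10 (95% interval -0.04 to 0.54) missed the threshold (adjusted p = 0.107 by limma). The adjusted p varied with scaling but stayed above the threshold. With median-of-ratios scaling the limma adjusted p was 0.0508, and with libraries scaled to the same FPKM total it was 0.2. ATP1B3 (ENSG00000069849, chromosome 3, 141876124 to 141926514, plus strand), the beta-3 subunit also known as CD298, had the opposite order. It was at 52.8 and 49.0 FPKM in LM3 versus 41.9 and 43.0 in RBE, a difference of -0.25 ± 0.11 (95% interval -0.57 to 0.06, adjusted p = 0.124 by limma). ATP1B2, the beta subunit of glia, was listed at 0 in LM3 versus 0.0797 and 0.0568 in RBE, and ATP1B4, a beta-like muscle protein, was listed at 0 throughout. The summed beta level was 174 and 178 FPKM in LM3 versus 191 and 192 in RBE, and ATP1B1 made up 69.6% and 72.5% of it in LM3 versus 78.0% and 77.6% in RBE. ATP1B1 stood at 2.29 and 2.64 times ATP1B3 in LM3 and at 3.56 and 3.46 times in RBE.

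The related hydrogen-potassium pump genes ATP4A, ATP4B and ATP12A were all under 1 FPKM.

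The FXYD and beta genes were in different proportion in the 2 lines. The summed FXYD level was 131 and 89.5 FPKM in LM3 versus 488 and 471 in RBE. It was 0.756 and 0.502 of the summed beta level in LM3 and 2.55 and 2.45 times it in RBE. These ratios compare FPKM, which are scaled to length, and they are of transcripts, not of proteins.

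**Figure D2:**
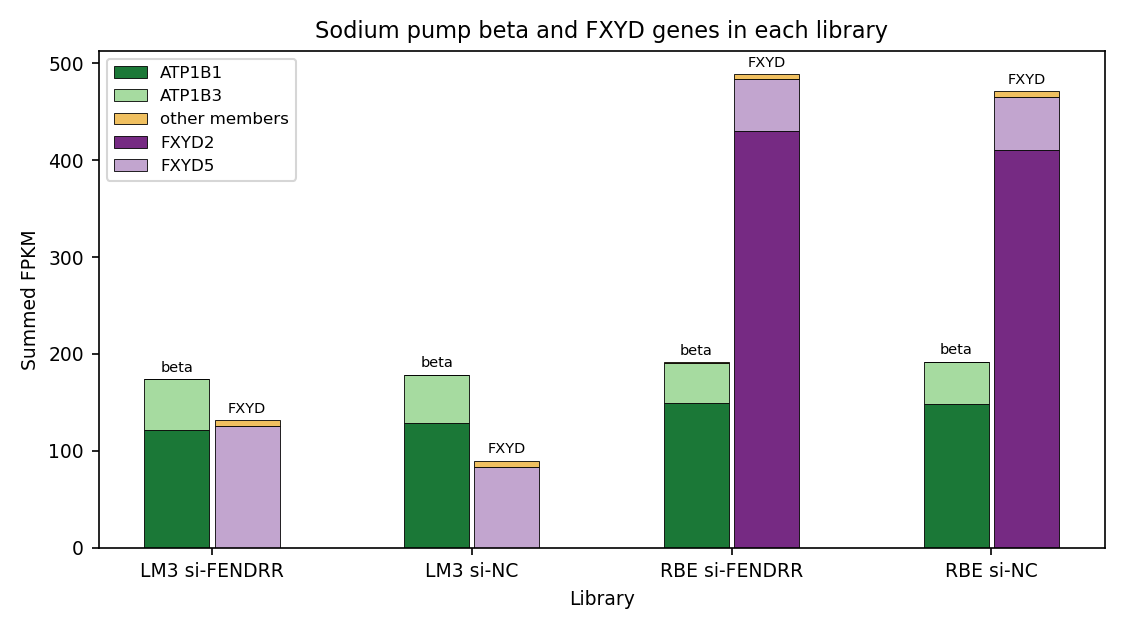
Summed FPKM of the beta and FXYD genes in each library, stacked by gene, with 2 bars per library. Beta bars are of like height in all 4 libraries (174 to 192 FPKM), whereas FXYD bars are taller in RBE, mostly FXYD5 in LM3 and mostly FXYD2 in RBE.

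Several genes listed as pump regulators were higher in RBE. Of 9 listed regulators, 7 were tested, 5 were higher in RBE and 1 in LM3, with a median difference of 0.65. The share that differed was 85.7%, beside 58.7% of all tested genes. MDM2, a ubiquitin ligase, was at 4.58 and 4.80 FPKM in LM3 versus 27.8 and 20.2 in RBE (adjusted p = 0.00268 by limma). PRKACA, the catalytic subunit of protein kinase A, was at 11.8 and 10.4 against 25.6 and 26.0 (0.00455). NEDD4L, a ligase that removes epithelial sodium channels, was higher in RBE by 0.69 ± 0.11, and the kinase PRKCA by 0.65 ± 0.11. NKAIN4, a partner of the beta subunit, was at 1.47 and 2.24 FPKM in LM3 and listed at 0 in RBE.

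The defining chloride channels of bile duct secretion were under 0.1 FPKM in both lines. CFTR (ENSG00000001626, chromosome 7, 117465784 to 117715971, plus strand), the channel activated downstream of cyclic AMP, was listed at 0 in LM3 but at 0.0209 and 0.0230 FPKM in RBE. ANO1 (ENSG00000131620, chromosome 11, 70078302 to 70189528, plus strand), a calcium-activated channel also known as TMEM16A, was at 0.0207 and 0.0455 in LM3 versus 0.0890 and 0.0246 in RBE. Both were under 1 FPKM in all 4 libraries and were not tested. With the depth unknown, no detection limit can be given for either gene.

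Other anion and potassium channels were present. LRRC8A, the volume-regulated anion channel, had the highest level of the 9 listed channel genes, at 36.9 and 38.8 FPKM in LM3 versus 40.2 and 43.2 in RBE (0.14 ± 0.11, adjusted p = 0.331 by limma). KCNN4, a calcium-activated potassium channel, was at 13.4 and 18.8 in LM3 versus 10.0 and 8.10 in RBE (adjusted p = 0.0481 by limma), and CLCN2 at 6.78 and 6.60 against 4.43 and 3.32 (0.0226). These were the 2 of 5 tested channel genes that differed (40%, beside 58.7% of all tested genes). Both were higher in LM3, and the list's median was -0.67. Among the 10 anoctamins, the family of ANO1, 4 of 5 tested genes were higher in LM3 and 0 in RBE, with a median of -1.31. That is 80% of those tested, beside 58.7% of all tested genes that differed. ANO9 was at 38.2 and 36.5 FPKM in LM3 versus 1.92 and 2.11 in RBE, a ratio of the line means of 18.5 (adjusted p = 0.000750 by limma), and ANO10 was 2.80 times as high in LM3. ANO6, a lipid scramblase and channel, was between 37.7 and 39.4 FPKM in all 4 libraries (-0.01 ± 0.11, 95% interval -0.32 to 0.30, adjusted p = 0.961 by limma). The summed anoctamin level was 126 and 123 FPKM in LM3 versus 59.3 and 58.3 in RBE.

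SLC4A2, the bicarbonate step of bile secretion, was abundant in both lines, with overlapping levels. SLC4A2 (ENSG00000164889, chromosome 7, 151057210 to 151076527, plus strand), also called AE2, was at 114 FPKM with si-FENDRR and 132 with si-NC in LM3 versus 121 and 106 in RBE. The difference was -0.12 ± 0.14 (95% interval -0.52 to 0.28, adjusted p = 0.507 by limma). It made up 92.5% to 93.5% of the summed level of the SLC4 genes on the list. Of the 12 tested bicarbonate transport genes, SLC4A2 included, 9 differed (75%, beside 58.7% of all tested genes). Of these, 7 were higher in LM3 and 2 in RBE, and the list's median was -0.52. CA12, a carbonic anhydrase at the cell surface, was at 57.7 and 49.7 FPKM in LM3 versus 2.16 and 2.56 in RBE, a ratio of the line means of 22.8 (adjusted p = 0.000837 by limma). CA9, of the same family, was 6.01 times as high in LM3 and the apical anion exchanger SLC26A6 2.53 times. In RBE, the chloride-loading cotransporter SLC12A2 was higher, at 5.18 and 5.21 FPKM against 2.79 and 2.35, and so was SLC4A3, near 1 FPKM.

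AQP1, the water channel of bile duct cells, of vessel walls and of red cells, was higher in RBE but low. AQP1 (ENSG00000240583, chromosome 7, 30911694 to 30925516, plus strand) was at 3.32 FPKM with si-FENDRR and 3.15 with si-NC in RBE, and at 0.401 and 0.351 in LM3. The lines did not overlap, the ratio of their means was 8.60, and the difference was 1.62 ± 0.14 (95% interval 1.23 to 2.01, adjusted p = 0.00297 by limma). With a pseudocount of 0.1 the difference was 2.81 and with 5 it was 0.615. It shares exon bases with the model AC004691.2, which was listed at 0 in all libraries except RBE si-FENDRR, at 0.273 FPKM. Of 7 markers of vessel wall and red cells, which also carry AQP1, 6 were under 1 FPKM everywhere, HBB was listed at 0, and PECAM1 was lower in RBE, at 0.401 and 0.408 against 3.10 and 3.86 in LM3. Their summed level was 0.862 and 0.700 FPKM in RBE against 3.94 and 4.44 in LM3, where most of it was PECAM1. The bearing of these markers on the AQP1 level was not tested.

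The aquaporins together summed to overlapping levels in the lines, with another makeup. Their sum was 8.01 and 9.48 FPKM in LM3 versus 9.83 and 8.77 in RBE, and AQP1 was 5.00% and 3.71% of it in LM3 versus 33.8% and 35.9% in RBE. All 4 tested aquaporins of 14 differed (100%, beside 58.7% of all tested genes), with a median of 0.03. AQP3 was higher in RBE, at 4.00 and 3.74 against 1.71 and 1.60 FPKM, and AQP7 and AQP11 were higher in LM3. AQP7, a glycerol channel, was at 2.86 and 4.52 FPKM in LM3 versus 0.574 and 0.420 in RBE (adjusted p = 0.00720 by limma).

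Over the 9 genes, 7 were tested and 4 differed between the lines, 2 higher in RBE (FXYD2, AQP1) and 2 in LM3 (FXYD3, FXYD5). That is 57.1% of the tested members beside the 58.7% of all tested genes, so the number of differing members is close to the background. The members' median difference was -0.12, beside -0.09 over all tested genes. In order of mean level in RBE they ran FXYD2, ATP1B1, SLC4A2, FXYD5, ATP1B3, AQP1 and then ANO1, CFTR and FXYD3 under 0.1 FPKM. Only the last of these neighbours, CFTR and FXYD3, overlapped. In LM3, ATP1B1, SLC4A2 and FXYD5 came first with overlapping values, followed by ATP1B3, FXYD3, AQP1, ANO1 and the listed zeros of FXYD2 and CFTR.

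The upstream and downstream parts of bile duct secretion, from lists chosen for this purpose, are given next. Of 107 further pathway genes, 67 were tested and 46 differed between the lines (68.7%, beside 58.7% of all tested genes). Of these, 20 were higher in RBE and 26 in LM3, and the median over the tested genes was -0.11. Secretin signalling had 11 of 18 genes tested, 3 higher in RBE and 2 in LM3 (45.5% differing), with a median of 0.33. The adenylyl cyclase ADCY5 was at 2.23 and 3.46 FPKM in RBE against 0.0330 and 0.0120 in LM3, whereas ADCY9 was at 10.8 and 12.0 in LM3 against 3.51 and 3.88 in RBE. PRKAR2B, a regulatory subunit of protein kinase A, was higher in RBE, at 2.07 and 2.17 FPKM against a listed 0 and 0.0743. The calcium release channel ITPR3, which serves secretion at the apical pole, was at 25.6 to 36.7 FPKM in the 4 libraries and missed the threshold (adjusted p = 0.251 by limma), and ITPR1 was higher in LM3.

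Among 7 scaffold genes that tie channels to the apical membrane, 1 was higher in RBE and 2 in LM3, with a median of -0.15. The share that differed was 42.9%, beside 58.7% of all tested genes. PDZK1, a scaffold with several PDZ domains, was at 7.30 and 7.21 FPKM in RBE and at 1.17 and 0.636 in LM3 (adjusted p = 0.00241 by limma). MSN, an actin linker, was at 188 and 185 in LM3 versus 24.7 and 23.3 in RBE (0.000797), whereas its relative EZR missed the threshold (0.418). Of the bile acid and cilium list, 4 of 7 tested genes differed (57.1%), 2 each way, with a median of -0.09. TRPV4, the osmosensor of cholangiocyte cilia, was at 15.9 and 17.0 FPKM in RBE and at 0.140 and 0.0890 in LM3 (adjusted p = 0.000750 by limma), and the cilium protein PKHD1 was at 3.61 and 3.80 in RBE and listed at 0 in LM3. SLC51B, part of the basolateral bile acid exporter, went the other way, at 24.3 and 28.9 in LM3 versus 1.86 and 1.17 in RBE (0.00155), and the exporter ABCC3 lay between 65.0 and 76.2 in all 4 libraries.

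Of the transcription factors listed as known to act on FXYD2 or CFTR, FOXA1 and EHF were higher in RBE and CDX2 and KLF5 in LM3. FOXA1, a pioneer factor of endoderm, was at 18.2 and 16.8 FPKM in RBE against 6.01 and 6.42 in LM3 (adjusted p = 0.00339 by limma). CDX2, an intestinal factor, was at 2.24 and 2.65 in LM3 against a listed 0 and 0.0224 in RBE (0.00292), and FOXA2 missed the threshold between the lines (0.828). Whether each factor acts on FXYD2 or on CFTR was not examined, and its part in either level was not tested.

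**Figure D3:**
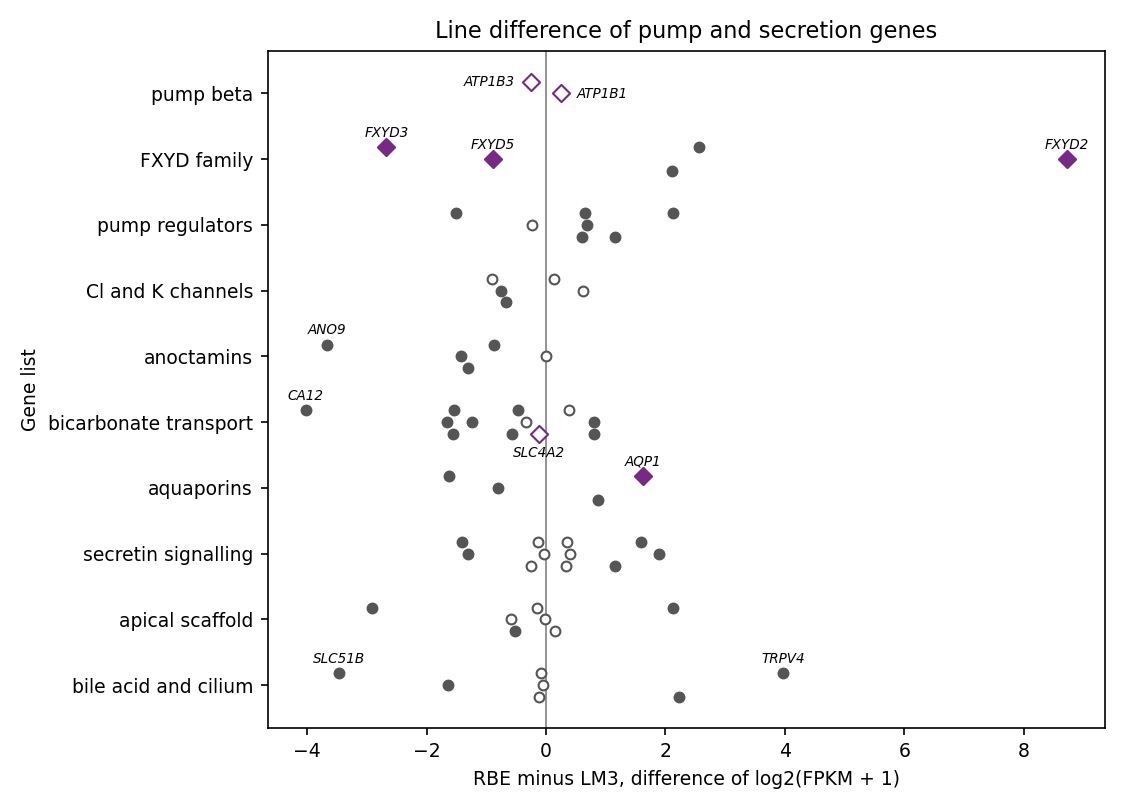
Line difference of each tested gene (RBE minus LM3, log2(FPKM + 1)) by list, with diamonds for the members, circles for other genes and filled symbols for an adjusted p under 0.05; members and genes beyond 3 log2 units are named. FXYD2 lies farthest to the right, at 8.72 against listed zeros in LM3, while the beta subunits and SLC4A2 lie near 0 with open symbols.

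Genes with the pattern most like a member over the 4 libraries were found by Euclidean distance of log2(FPKM + 1), for the 3 members with the largest line difference. For FXYD2 they were the actin-binding COTL1 (distance 1.51), the tight junction claudin CLDN2 (1.73) and the cold shock protein YBX3 (2.16). CLDN2 was at 198 and 190 FPKM in RBE and at 0.552 and 0.262 in LM3. Among the closest to FXYD3 were SUN3 (0.0700) and LINC00483 (0.0788). Closest to AQP1 were 2 long noncoding RNAs, AL135903.2 (0.107) and LINC00920 (0.149), and CA13, a carbonic anhydrase (0.150). The distances of FXYD2 were larger than those of FXYD3 and AQP1.

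Between si-FENDRR and si-NC over both lines, no member passed the threshold, nor did any of the 15930 genes (0.0% called by limma, smallest adjusted p 0.473, and 657 genes at an unadjusted p under 0.05). Adjusted p-values of the 7 tested members ran from 0.959 to 0.999. The difference of FXYD5 was the largest of the members, at 0.29 ± 0.19 (95% interval -0.24 to 0.81), and came from LM3. There it was 1.51 times as high with si-FENDRR, at 126 against 83.3 FPKM, while in RBE the ratio was 0.986. FXYD2 was listed at 0 in both LM3 libraries, so only RBE bears on its transfection difference. There the ratio was 1.05 and the difference 0.07 on the log2(FPKM + 1) scale. The fit averages this with a difference of 0 in LM3, which gave 0.03 ± 0.11 (95% interval -0.29 to 0.35). SLC4A2 had a ratio of 0.862 in LM3 and 1.14 in RBE, so its lines moved in opposite directions by like amounts (-0.01 ± 0.14, 95% interval -0.42 to 0.39). For ATP1B1 the 95% interval was -0.34 to 0.25, for ATP1B3 -0.28 to 0.35, for FXYD3 -0.43 to 0.37 and for AQP1 -0.34 to 0.45. Each of these intervals holds a change in either direction of the size that SLC4A2 had within LM3, -0.21 on the log2 scale.

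Within a line there is 1 library per transfection and no test. FPKM + 1 differed at least 2-fold in 2.13% of the tested genes in LM3 and in 1.75% in RBE, and in 0 of the 7 tested members in either line. Of the members, AQP1 was slightly higher with si-FENDRR in both lines, 0 were lower in both, and 5 had opposite signs. Of the 67 tested pathway genes, 2 passed the fold in LM3 and 1 in RBE. SLC9A3R1, the scaffold NHERF1 that holds CFTR at the apical membrane, was at 299 FPKM with si-FENDRR and 63.2 with si-NC in LM3 versus 92.1 and 89.8 in RBE. FOXA2 was at 9.0 and 23.4 in LM3 versus 16.1 and 15.3 in RBE. BEST1, a calcium-activated anion channel, was at 0.0785 with si-FENDRR and 2.67 with si-NC in RBE, and at 2.84 and 2.62 in LM3. None of these 3 passed the transfection test over both lines (adjusted p = 0.959 for each by limma).

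**Figure D4:**
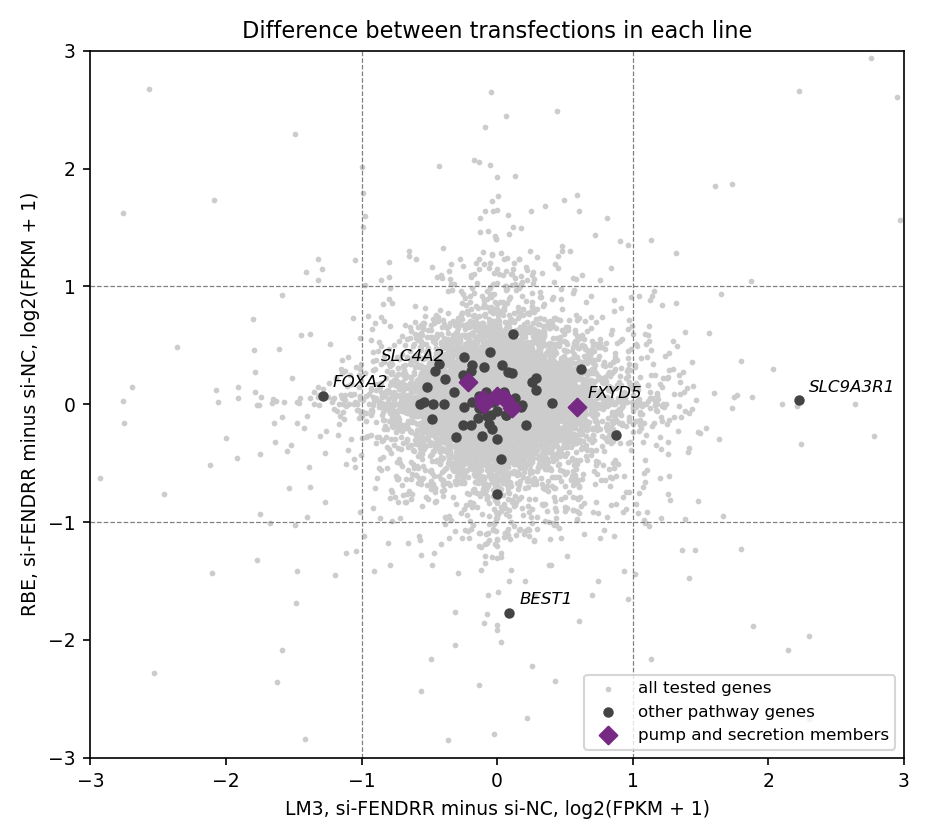
Difference between si-FENDRR and si-NC in log2(FPKM + 1), LM3 on the horizontal and RBE on the vertical axis, for all tested genes (grey), other pathway genes (black) and the members (purple diamonds), with dashed lines at 2-fold; 20 genes lie outside the plotted range. The members lie inside the 2-fold lines in both lines, with FXYD5 the farthest along the LM3 axis at 0.59.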

How the data were processed

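The authors deposited FPKM values per gene and library, per the file headers. The submitters' processing notes name FastQC, HISAT2 and hg38 without versions. The FPKM estimator and its annotation were not given in the sources used here. Libraries came from an mRNA kit, per the labels' protocols. An FPKM of 0 can be a failed estimate, so such genes are called listed at 0. In low values of single-exon genes only 11.7% to 17.0% lay within 0.02 of whole multiples of a step, so reads were not recovered and no count test was run, although one had been set for counts. Of the gene identifiers, 57836 were in GENCODE release 29, which gave gene types, exons and overlaps.

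The FPKM went into limma 3.58.1 (R 4.3.3) on the log2(FPKM + 1) scale and with a prior variance that followed the mean level, for genes at 1 FPKM or more in any library, leaving 1 residual degree of freedom. P-values were adjusted by Benjamini-Hochberg over all 15930 genes. A pseudocount of 1 understates the change of low genes. On simulated data the fit found changed genes but made more false calls than its threshold allows. Alternatives covered the pseudocount, filter, scaling, model terms and left-out libraries.

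The genes named were the members, the genes of the beta, hydrogen-potassium pump and FXYD lists, and from each other list the 3 highest by mean FPKM and the 2 largest called line differences per direction; others named, such as neighbours, markers at 0, KLF5, BEST1 and CLDN4, were chosen after their values were seen. Members and lists were chosen with earlier results of these data known. Some genes that this rule names are not reported here.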

Additional observations from a re-analysis of the deposited data

Results flagged for a closer look

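For 5 members the 2 lines went opposite ways between si-FENDRR and si-NC, each with 1 library per transfection. The LM3 difference less the RBE difference, on the log2(FPKM + 1) scale, was 0.61 for FXYD5, the largest of the 5. It was -0.40 for SLC4A2, lower with si-FENDRR in LM3 and higher in RBE. It was 0.14 for ATP1B3, -0.14 for FXYD3 and -0.10 for ATP1B1, all from differences near 0. With no replicate of a line and transfection, none of these differences between the lines was tested. Opposite signs were common over the whole table, in 7497 of 15930 tested genes.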

How the results depend on the processing

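Between the lines 9348 genes were called, and 9643 with the line term alone. Leaving out single libraries, also with the line term alone, gave 5573 (without RBE si-NC) to 6980, in a fit that assumes the lone library of a line varies like the other line. Of the members' line results under all alternatives, 71 kept their direction and side of the threshold and 3 did not, all for FXYD5, whose difference of -0.89 lost its call with no filter (-0.89) and without an RBE library (-0.88 and -0.90). Of the members' transfection results, 45 held and 1 turned sign: FXYD3 went from -0.03 to 0.13 with a pseudocount of 0.1, with both values far from the threshold. The transfection count was 0 under every alternative run. Within LM3 the 339 genes at 2-fold became 1269 at 1.5-fold, where FXYD5 was the 1 member to pass, and 940 with a pseudocount of 0.1; within RBE 279 became 999 and 818. Restriction to protein-coding genes without overlap was added after the data were seen and gave 6632 line calls of 10600 genes; it drops FXYD2, FXYD3 and AQP1. With both terms, a transfection fit without 1 library could not be fitted, as no residual degree of freedom is left. A fit of that kind with the transfection term alone was not run. The model compares transfections within each line; without the line term 32 genes had an unadjusted transfection p under 0.05, against 657. Depth is unknown, so values under 1 FPKM, such as those of CFTR and ANO1, carry no detection limit.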

Other observations

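CLDN4, a tight junction claudin on the cholangiocyte marker list, differed most between transfections among the tested markers of that list, and alone passed 2-fold of FPKM + 1, at 179 FPKM with si-FENDRR and 0.515 with si-NC in LM3. In RBE it was at 50.8 and 66.7 FPKM. It was chosen after its values were seen, and with 1 library per transfection the difference has no test.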
